A study of Homo sapiens with 3 samples.

Results

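The genes that release calcium inside a muscle cell and pump it back were read in Rh-30 cells on 3 arrays. Rh-30 is an established line of alveolar rhabdomyosarcoma (ARMS), a muscle-like tumour, and expresses the fusion protein PAX3-FOXO1. The members were RYR1, CACNA1S, CACNB1, CACNG1, ATP2A1, ATP2A2, CASQ1, CASQ2 and TRDN, taken with every probe set that the platform annotation pairs with these symbols. That gave 17 probe sets for 9 genes, out of 41091 probe sets for 19775 genes. All 3 cultures received an siRNA at 5 nM with a lipid reagent and were harvested after 24 h. The siCont array held cells given a control siRNA, the siPF array cells given an siRNA against the PAX3-FOXO1 junction, and the siB7-H3 array cells given an siRNA against B7-H3 (CD276). A single siRNA per target was used in a single line. With 1 array per condition the spread between cultures is unknown, so each difference is one between 2 arrays and carries no test. An array reads the whole culture, so a change in some of the cells and a change in all of them cannot be told apart.

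In skeletal muscle an action potential enters the transverse tubules and moves the voltage sensor, an L-type calcium channel built around CACNA1S with the subunits CACNB1 and CACNG1. The sensor opens RYR1, the ryanodine receptor, and calcium leaves the sarcoplasmic reticulum. CASQ1 and CASQ2, the calsequestrins, hold calcium in the lumen and are tied to the channel by triadin, the product of TRDN. The SERCA pumps ATP2A1 and ATP2A2 return calcium to the lumen. ATP2A1 is the pump of fast skeletal fibres, whereas ATP2A2 has a muscle form and a form found in most cells. CASQ2 is best known from the heart.

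Values are intensities on a linear scale, and differences are given in log2, so that 1 is 2-fold. The level limit was the 60th percentile of an array, which fell at 132 (siCont), 137 (siPF) and 134 (siB7-H3). Intensity also depends on the probes, so the values of different probe sets do not rank the genes. A gene passed this level rule if the higher of the arrays compared reached its own limit. Differences between arrays widened at low intensity. Across probe sets with a mean intensity over 1024, the log2 difference had an SD of 0.31 for siPF and 0.29 for siB7-H3. The SD was 0.53 and 0.52 between 64 and 256. It was 1.83 and 1.81 at a mean under 16, where 5 of the 17 probe sets lay. CD276 was at 1486 with siCont, 1381 with siPF and 362 with siB7-H3. FOXO1, whose 3' part the fusion transcript holds, was at 678 with siCont and 249 with siPF. PAX3 was at 381 with siCont and 329 with siPF. Of 9 measured skeletal muscle markers, 6 reached the limit with siCont, 6 with siPF and 8 with siB7-H3. MYOD1, the myoblast factor, read 11471, 8688 and 13046, and DES, the gene of desmin, 2776, 4533 and 3399 on these arrays. The summed intensity of the 9 was 42908, 56639 and 51690, most of it from ACTC1, an actin gene, and 15921, 17932 and 18937 without that gene. In siPF, MYOD1 (-0.40), MYF5 (-0.96) and MYF6 (-2.10) were lower than siCont in log2. MYF6 was dim, at 11.3 with siCont and 2.64 with siPF. MYOG (2.48), CHRND (0.88), DES (0.71), CHRNG (0.66), ACTC1 (0.52) and TNNT3 (0.31) were higher in siPF. CHRNG (85.3 and 135) and TNNT3 (85.8 and 106) were under the limit with both siCont and siPF. The other TNNT3 probe set went the opposite way in siPF, at -2.95. The part of these markers in the member differences was not tested. The defining markers of leucocytes and epithelium stayed under the limit on all arrays, with PTPRC at 20.1 to 72.3 and EPCAM at 1.03 to 15.3. Of the heart markers, NKX2-5 reached the limit on all arrays, and NPPB, at 149, in siB7-H3. Of the 3 endothelial markers, PECAM1 was over the limit, at 621 to 910, and CDH5 (1.79 to 11.6) and VWF (12.1 to 22.3) were under it on all arrays.

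The regions before the start of the release channel and pump genes are shown because myogenin, whose gene MYOG read 605 (siCont), 3386 (siPF) and 1269 (siB7-H3), is a factor known to bind the E-box CANNTG. The sequences are the 250 bases before the RefSeq start on the strand of the gene, build GRCh38.p14, with each CANNTG in capitals. A CANNTG on the plus strand is also one on the minus strand, and CAGCTG is a form of it.
RYR1, chr19:38433441-38433690, plus strand: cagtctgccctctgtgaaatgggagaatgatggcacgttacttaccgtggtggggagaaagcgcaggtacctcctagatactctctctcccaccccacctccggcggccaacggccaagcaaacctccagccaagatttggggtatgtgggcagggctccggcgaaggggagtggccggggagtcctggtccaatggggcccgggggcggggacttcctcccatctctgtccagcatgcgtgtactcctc
ATP2A1, first of its start sites, chr16:28878238-28878487, plus strand: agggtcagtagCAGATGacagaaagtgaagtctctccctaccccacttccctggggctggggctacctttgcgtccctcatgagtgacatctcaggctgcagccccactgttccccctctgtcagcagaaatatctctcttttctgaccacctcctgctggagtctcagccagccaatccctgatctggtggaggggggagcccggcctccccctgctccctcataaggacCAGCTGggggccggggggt
ATP2A2, first of its start sites, chr12:110280366-110280615, plus strand: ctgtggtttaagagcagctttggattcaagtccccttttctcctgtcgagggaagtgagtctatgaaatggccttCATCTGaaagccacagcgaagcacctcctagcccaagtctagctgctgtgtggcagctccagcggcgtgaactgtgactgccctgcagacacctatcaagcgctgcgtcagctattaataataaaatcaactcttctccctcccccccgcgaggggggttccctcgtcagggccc
RYR1 had no CANNTG in this window. ATP2A1, in the window shown, had a CAGATG that begins 239 bases before the start and a CAGCTG that begins 19 bases before it. The second ATP2A1 window, not shown, had no CANNTG. ATP2A2 had a CATCTG 175 bases before the start in the window shown, and a CACATG 48 bases before the start in its second. RefSeq gave 10 windows for 8 of the genes, and 8 of the 10 windows held a CANNTG, as did 61.8% of the 35116 windows of this length. CAGCTG was found in 2 of the 10, in ATP2A1 and CACNA1S, and in 14% of all windows. A match is a description of the letters and not a bound site.

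RYR1, the gene of the release channel, was higher with siPF, at 545, than with siCont, at 352, or siB7-H3, at 343. Its log2 difference from siCont was 0.63 in siPF (1.55-fold) and -0.04 in siB7-H3. The gene lies on chromosome 19 from 38433691 to 38587564 and has a single probe set, which stood at the 71.7th percentile of the siCont array, the 76.7th of siPF and the 71.2nd of siB7-H3. At a mean intensity between 256 and 1024 the SD across probe sets was 0.38 in siPF and 0.34 in siB7-H3. RYR1 was thus 1 of 3 member genes, of 9, that passed the level rule in both comparisons, together with CACNB1 and ATP2A2. Over all 19775 genes, 10497 passed it in siPF and 10480 in siB7-H3. CACNB1 passed only at its highest probe set.

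**Figure D1:**
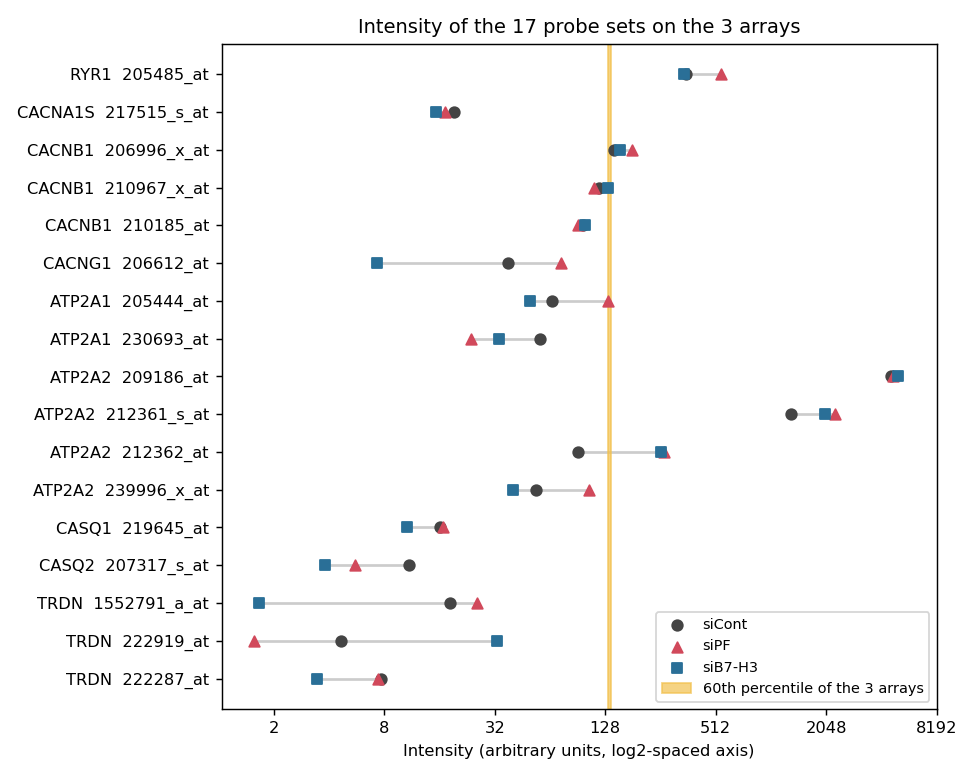
Intensity (horizontal, log2-spaced axis, arbitrary units) of each of the 17 probe sets on the siCont, siPF and siB7-H3 arrays, 1 symbol per array, with a grey line from the lowest to the highest. The yellow band is the 60th percentile of the arrays (132 to 137), and RYR1, a CACNB1 probe set and 2 ATP2A2 probe sets lie above it on all 3 arrays.

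The voltage sensor genes were under or near the limit. CACNA1S, the pore and sensor subunit on chromosome 1 (201039512 to 201112426), was at 19.1, 17.2 and 15.2 on the siCont, siPF and siB7-H3 arrays, at most the 25.4th percentile of an array. CACNB1, the beta subunit that brings the channel to the membrane, lies on chromosome 17 (39173453 to 39197669) and had 3 probe sets. The highest of them gave 143, 178 and 153, which is 0.32 above siCont in log2 with siPF and 0.10 with siB7-H3. The others gave 119, 112 and 132, and 97.1, 90.5 and 99.1, so that in siPF these lay slightly below siCont. All CACNB1 differences were within the SD for that level. CACNG1, the gamma subunit, lies on chromosome 17 from 67044554 to 67056797. Its single probe set gave 37.9 (siCont), 73.8 (siPF) and 7.31 (siB7-H3), and the log2 differences were 0.96 and -2.37. No array reached the limit for CACNG1, and the SD for its level was 1.23 in siPF and 1.24 in siB7-H3, so that the siPF difference lay within it and the siB7-H3 difference beyond it.

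The SERCA pumps had probe sets that did not move together. ATP2A2 (chromosome 12, 110280616 to 110351093) had 4 probe sets, which spanned intensities from 40.1 to 5024. The highest read 4618 with siCont, 4709 with siPF and 5024 with siB7-H3, differences of 0.03 and 0.12 in log2. The next read 1314, 2277 and 2006, which is 1.73-fold in siPF and 1.53-fold in siB7-H3. Against an SD of 0.31 and 0.29 for this level, the log2 differences were 0.79 and 0.61. A probe set that was under the limit in siCont, at 90.8, read 268 in siPF and 256 in siB7-H3, that is 2.95-fold and 2.82-fold. The lowest read 53.6, 104 and 40.1. From near-equal arrays to nearly 3-fold, the size of the ATP2A2 difference thus depended on the probe set. In siB7-H3 only the lowest probe set, under the limit on all arrays, was below siCont, at -0.42 in log2. That difference was within the SD of 1.24 for its level. The pair of probe sets over the limit on every array differed by 0.77 in log2 in siPF and 0.49 in siB7-H3. Over the 4849 genes with several probe sets at this brightness, the median range between probe sets was 0.29 and 0.28, and its 95th percentile 0.85 and 0.80. ATP2A2 transcripts are known to have more than a single 3' end. The positions of the probes were not used here, so which transcript each probe set read was not determined.

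ATP2A1, on chromosome 16 from 28878488 to 28904466, had 2 probe sets that went opposite ways in siPF. The higher read 65.3 with siCont, 132 with siPF and 49.9 with siB7-H3, log2 differences of 1.02 and -0.39. The other read 56.4, 23.8 and 33.7, log2 differences of -1.24 and -0.74. Neither reached the limit on any array, and in siB7-H3 both were below siCont. No direction can be given for ATP2A1 in siPF from these probe sets.

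**Figure D2:**
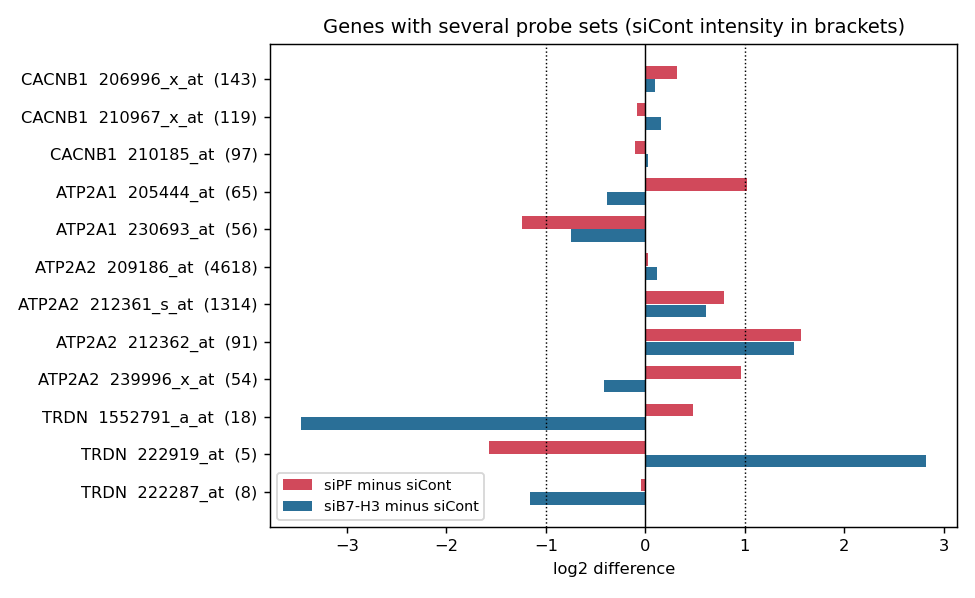
Log2 difference from siCont (horizontal axis) in siPF and siB7-H3 for each probe set of the 4 genes that have several, 1 bar per comparison, with the siCont intensity in brackets and dotted lines at 2-fold. The ATP2A2 bars run from near 0 at 4618 to more than 2-fold at 90.8, and at 53.6 lie at 0.96 in siPF and -0.42 in siB7-H3. The CACNB1 and ATP2A1 bars in siPF and the TRDN bars point both ways.

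The luminal genes were at low intensity on all arrays. CASQ1, the skeletal calsequestrin (chromosome 1, 160190575 to 160201886), read 16.03 with siCont, 16.6 with siPF and 10.6 with siB7-H3. CASQ2 (chromosome 1, 115700021 to 115768714) read 10.9, 5.50 and 3.78. These values lie between the 6.96th and the 22.9th percentile of their arrays. TRDN (chromosome 6, 123216339 to 123636950) had 3 probe sets, none above an intensity of 32.8. They read 18.2, 25.4 and 1.66, then 4.63, 1.55 and 32.8, then 7.64, 7.39 and 3.43 in the same order of arrays. Their log2 differences in siB7-H3 were -3.46, 2.82 and -1.16, so the sign depended on the probe set. The SD at this level was 1.83 in siPF and 1.81 in siB7-H3. No CASQ1 or CASQ2 difference exceeded it, whereas 2 TRDN probe sets did so in siB7-H3, in opposite directions.

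For counting, the probe set whose log2 intensity averaged highest over the 3 arrays stood for its gene. In siPF 1 of the 9 genes was at least 2-fold higher than siCont, ATP2A1, against 9.72% of all genes. ATP2A1 was at 0.99 with each array centred on its median and 0.98 after quantile normalization, just short of 2-fold. No member was at least 2-fold lower, against 9.39%. In siB7-H3 none was at least 2-fold higher, against 8.75%, and 3 were at least 2-fold lower (CACNG1, CASQ2 and TRDN), against 9.45%. With 16 added to each intensity, which damps low values, these became -1.21, -0.44 and -0.95. Of the 3 member genes that passed the level rule, none was past 2-fold in either comparison. Among all genes that passed it, 1.38% were higher and 1.12% lower in siPF, and 0.792% higher and 0.83% lower in siB7-H3. Every member gene past 2-fold was thus below the limit on both arrays compared.

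Counted by probe set, 2 of 17 were at least 2-fold higher in siPF (against 10.7% of all probe sets) and 2 lower (10.3%). In siB7-H3 2 were higher (9.82%) and 4 lower (10.5%). The ATP2A2 probe set at 90.8 in siCont was the only member probe set past 2-fold that also passed the level rule, in both comparisons. It passed only through the knockdown array, where it was higher, so passing the rule lends its difference no support. Among all 19732 probe sets that passed in siPF, 283 were at least 2-fold higher and 259 lower. In siB7-H3, 191 of 19729 were higher and 209 lower. Both comparisons use the same siCont array. Over the 17 probe sets the highest value lay on the siPF array in 9, on siCont in 4 and on siB7-H3 in 4, and the lowest on siB7-H3 in 9. Over all probe sets the highest value lay on siPF in 35.0%, and the lowest on siB7-H3 in 33.3%.

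**Figure D3:**
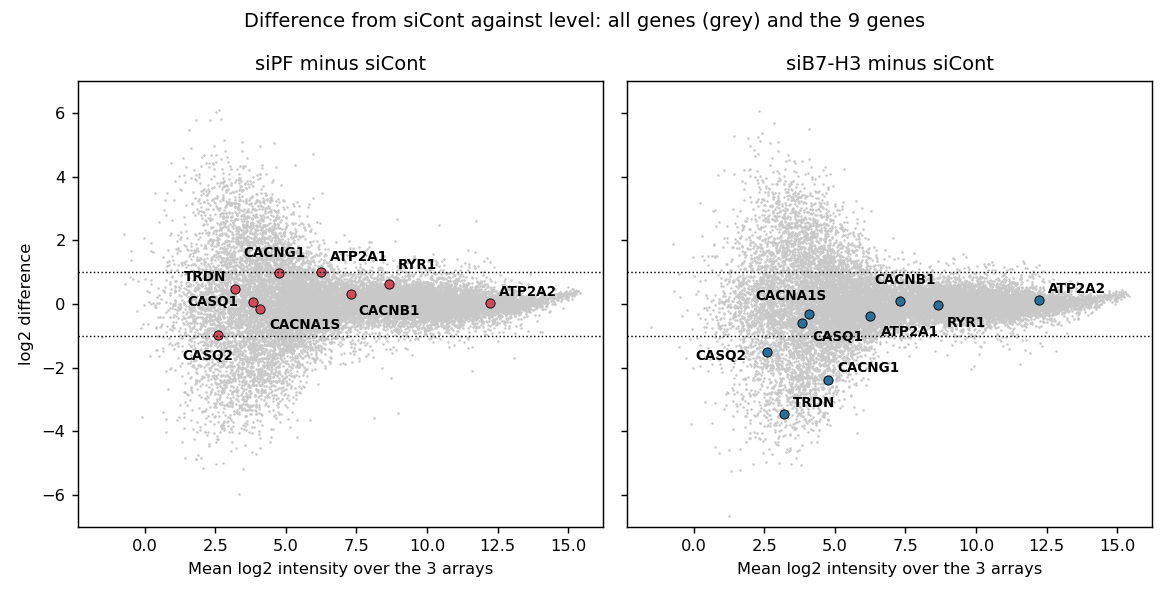
Log2 difference from siCont (vertical axis) against mean log2 intensity over the 3 arrays (horizontal axis) for all 19775 genes in grey and the 9 genes in colour, siPF on the left and siB7-H3 on the right, with dotted lines at 2-fold. RYR1 lies at 0.63 in siPF and -0.04 in siB7-H3, and TRDN, CACNG1 and CASQ2, past 2-fold lower in siB7-H3, lie where the grey points spread most.

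The median log2 difference of the 9 genes was 0.32 in siPF and -0.39 in siB7-H3, beside 0.02 and 0.0045 over all genes. Of the 9, 7 were above siCont in siPF, beside 51.6% of all genes, and 2 in siB7-H3, beside 50.5%. Set directly against each other, siPF was above siB7-H3 for 8 of the 9 genes, beside 51.7% of all genes, with a median log2 difference of 0.65 beside 0.01. The exception was ATP2A2, at -0.09 at its highest probe set but 0.18, 0.07 and 1.38 at the others. CACNB1 was at 0.22 at its highest probe set and at -0.24 and -0.13 at the others. Apart from these genes and RYR1, the other 6 genes were under the limit on all arrays at every probe set. ATP2A1 (1.41), CACNG1 (3.34) and TRDN (3.94) were higher in siPF by 2-fold or more, against 10% of all genes, and no member was at least 2-fold lower, against 8.87%. All 3 were under the limit on both arrays, and other probe sets of ATP2A1 (-0.50) and TRDN (-4.40) were lower in siPF than in siB7-H3. RYR1 differed by 0.67 in log2. Counted by probe set, siPF was above siB7-H3 at 12 of 17, beside 51.6% of all probe sets, and the median was 0.22.

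Of 57 other calcium handling genes listed by role, 55 had a probe set of their own. In each comparison 32 passed the level rule, beside 10497 of all 19775 genes in siPF and 10480 in siB7-H3. None of the 32 was past 2-fold. Among all genes that passed, 1.38% were at least 2-fold higher and 1.12% lower in siPF, and 0.792% and 0.83% in siB7-H3. With shares this small, finding none among 32 does not set these genes apart. In siPF 18 of the 32 were above siCont and 14 below, and in siB7-H3 16 were above and 16 below. The median log2 difference of the 32 was 0.06 in siPF and -0.0072 in siB7-H3. Without the level rule, 9 of the 55 were higher by 2-fold or more in siPF (against 9.72% of all genes) and 3 were lower (9.39%), and in siB7-H3 6 were higher (8.75%) and 2 lower (9.45%), and each of these was under the limit.

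STAC3, an adaptor that couples the voltage sensor to RYR1, read 6893 with siCont, 8199 with siPF and 8129 with siB7-H3. JPH1, a junctophilin that ties the tubule to the reticulum, read 834, 584 and 850, and JPH2 read 185, 255 and 217. Among release channel genes, RYR3, the ryanodine receptor of immature muscle, read 648 with siCont, 341 with siPF and 616 with siB7-H3. Its log2 difference of -0.93 in siPF was opposite in sign to the 0.63 of RYR1, and in siB7-H3 the differences were -0.07 for RYR3 and -0.04 for RYR1. RYR2, the cardiac receptor, was at 1.49, 41.8 and 21.4, far below the limit. HOMER1, a scaffold protein, read 471, 698 and 805, and its other probe set 415, 716 and 869, so that only the latter in siB7-H3 passed 2-fold (1.07). TMEM38B, a counter-ion channel of the reticulum, was at 4351, 4748 and 4379.

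Of the listed small peptides that act on SERCA, MRLN, the skeletal inhibitor myoregulin, was the 1 gene of the reuptake group over the limit. MRLN read 3249 with siCont, 5254 with siPF and 3051 with siB7-H3, or 0.69 and -0.09 in log2 from siCont. The list did not hold every such peptide. ARLN, left off it, had a mean log2 intensity of 12.1 and differences of 0.01 in siPF and 0.16 in siB7-H3. Sarcolipin, SLN, read 97.9, 22.1 and 56.1, with log2 differences of -2.15 and -0.80, but stayed under the limit throughout. ATP2A3, the SERCA pump of blood cells and epithelia, read 16.04, 5.68 and 24.8. MRLN and RYR1 were both higher on the siPF array alone. SLN, under the limit, was lowest there and was also below siCont in siB7-H3.

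Of the luminal and cytosolic binding proteins 2 of 3 passed the level rule, of the store-operated entry genes 5 of 5, of the extrusion genes 3 of 7 and of the other channel subunits 3 of 10. CALU, calumenin, read 4651, 4861 and 4264 and CALR, calreticulin, 4563, 4345 and 4490. In store-operated entry, ORAI2, a membrane channel, read 1183, 1119 and 998. STIM1, the luminal calcium sensor, read 246 with siCont, 127 with siPF and 190.0 with siB7-H3, and so was under the limit with siPF, a log2 difference of -0.95, where its other probe set was at 0.21. ITPR2, an inositol trisphosphate receptor, read 296, 292 and 393. At the plasma membrane ATP2B1, a calcium pump, read 4891, 3890 and 4097. CAV3, the muscle caveolin, read 3961, 3366 and 3575, and CACNG4, another gamma subunit, 341, 379 and 461.

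**Figure D4:**
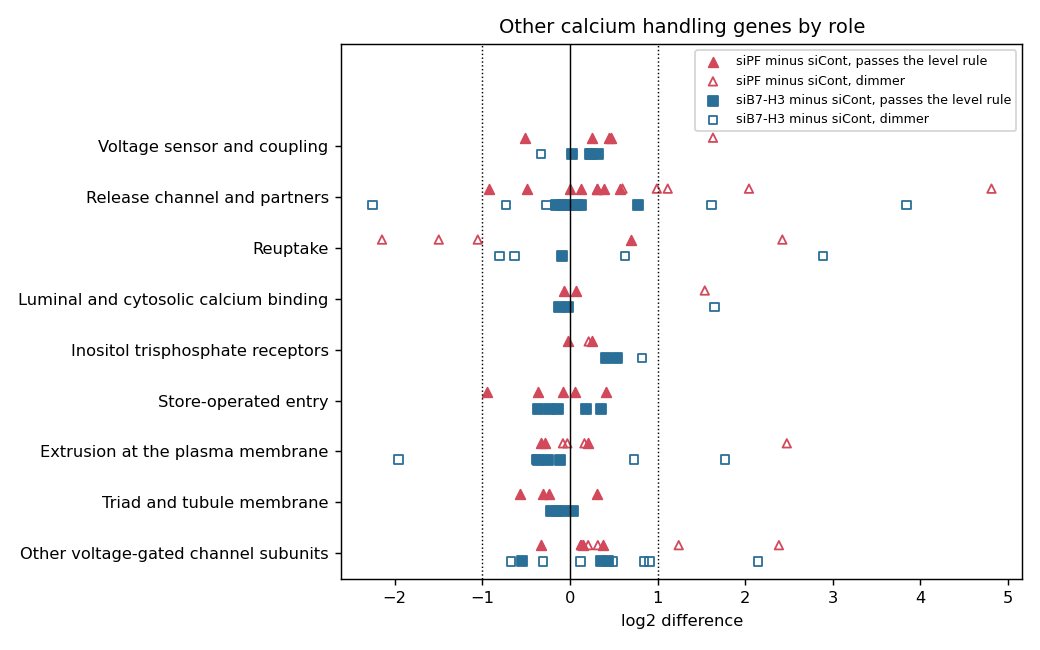
Log2 difference from siCont (horizontal axis) of the 55 other calcium handling genes, grouped by role, for siPF (triangles) and siB7-H3 (squares), with dotted lines at 2-fold. Filled symbols pass the level rule and lie between -0.95 and 0.77, and every symbol past 2-fold is open.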

How the data were processed

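Each Rh-30 culture was read on a U133 Plus 2.0 array, a 3'-biased design. The deposited column gives linear intensities, for which the submitters' processing notes name Affymetrix Expression Console 1.4.1. How probes were summarized is not given in the sources used here. With 2% of values trimmed at either end the mean came to 500.1 throughout, so the authors' intensities had been scaled to each other, and no floor was seen. Precision is limited by 1 array per condition.

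Intensities were taken to log2 with no pseudocount. Only probe sets paired with exactly 1 gene symbol were kept. A gene was called at a 2-fold difference between 2 arrays, with no test. The members and lists were chosen with earlier results of these data known. The named genes were all members, the siRNA targets, MYOG, MYOD1 and DES, list genes past 2-fold under the level rule and the brightest of each role. Other genes were named after their values were seen. Promoters came from RefSeq (GRCh38.p14) and were matched by symbol for 8 members, not for CACNG1. Likeness to other genes was not computed over 3 arrays. Alternatives covered the choice of probe set, array scaling, low values and a pseudocount. Python 3.11.15, numpy 2.4.6, pandas 2.3.3 and matplotlib 3.10.9 were used, with the scripts tested on simulated data first.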

Additional observations from a re-analysis of the deposited data

How the results depend on the processing

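No test between arrays was possible, and most members were dim, so the counts and medians depended on the setting. The count of 1 gene at least 2-fold higher in siPF became 0 with each array centred on its median, with quantile normalization, with the median over probe sets, with 16 added to each intensity, with values under the 60th percentile set to it and under the level rule. The count of 0 genes lower in siPF became 1 with centring or quantile normalization (CASQ2) and without probe sets that can bind several transcripts (TRDN). The count of 3 genes lower in siB7-H3 became 1 with 16 added, and 0 with the floor or among the 3 genes under the level rule. Without those probe sets it was 1 of 7 genes, with CASQ2 no longer measured. The count of 0 higher in siB7-H3 became 1 without those probe sets (TRDN). Among the other calcium genes that passed the level rule, 1 was past 2-fold in siPF with the median over probe sets (MTM1) and 1 in siB7-H3 without those probe sets (HOMER1), instead of 0.

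The median of the 9 genes in siPF was -0.0487 with the median over probe sets and 0.0537 with the floor. Without probe sets that can bind several transcripts it was 0.0515, over 7 genes, since CACNA1S and CASQ2 have no other probe set. In siB7-H3 the median was -0.57, 0.0249 and, over the 7 genes, -0.0359 in the same order, and -0.27 with 16 added. It was 0.10 over the 3 genes that passed the level rule, and the mean of the 9 genes was -0.94. ATP2A1 in siPF turned to -0.11 with the median over probe sets and to -1.24 at its other probe set. TRDN in siB7-H3 turned to 2.82 at another probe set, the value also found without those that can bind several transcripts. With the floor CACNG1, CASQ2 and TRDN in siB7-H3 turned to 0.0249. The cause of these changes was not tested, except that the floor leaves dim genes only the difference between the limits of the arrays.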

Other observations

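Antisense RNAs of members were also on the arrays, and were looked at after their values were seen. ATP2A1-AS1, which overlaps 965 bases of the ATP2A1 gene, read 909 with siCont, 976 with siPF and 864 with siB7-H3, which is 0.10 and -0.07 from siCont in log2. TRDN-AS1, which lies within TRDN over 32153 bases, had 9.12, 29.5 and 24.2, under the level limit on each array.

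FOXO1 also had a second bright probe set, at 358 with siCont, 88.4 with siPF and 373 with siB7-H3, and CD276 a second at 460, 349 and 11.4.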
